A study of Mus musculus with 14 samples.

Results

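Hepatocyte nuclear factors HNF4A and HNF4G, together with 5 genes of gut, liver or pancreas epithelium that earlier work ties to HNF factors or to such epithelia, were followed in pancreatic islets of newborn mice. The 7 genes were Hnf4a, Hnf4g, Anks4b, Fam151a, Tmem27, Adh1 and Anxa10, of 54532 genes listed and 18732 that held enough counts to be tested, and all 7 were among those tested. They were found by name; 6 are listed under these symbols and Tmem27 under its newer symbol Cltrn. The genes were selected on their measured Adjudin against DMSO values in these same libraries, so every value of that contrast below describes the 7 genes and carries no test.

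The islets came from wild-type C57BL/6JRj mice at postnatal day 0. The treated islets were kept for 1 day with 10 µM Adjudin, a compound known as a potential reversible male contraceptive, in medium with 11 mM glucose, and the control islets with its solvent DMSO in the same medium. There were 7 libraries per treatment, poly(A)-selected RNA was sequenced, and the same-numbered Adjudin and DMSO libraries carry 1 batch label, so that they form 7 pairs. Islets of several newborns, male or female, went into each sample, so a library averages over animals and over all cell types that came along with the handpicked islets.

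HNF4A and HNF4G are nuclear receptors that bind DNA as dimers, and HNF4A is a main regulator of liver, gut and beta cell genes. Hnf4a has a downstream promoter used mainly in liver and a far upstream promoter used mainly in beta cells. In bulk libraries fewer cells of a type and less RNA per cell cannot be told apart.

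The promoters of the genes show whether they hold letters that HNF4 and forkhead factors are known to bind, and the 1 window with a match is given here because the set is named for HNF factors. RefSeq annotation of GRCm38.p6, the build named mm10 in the processing notes, gave 8 promoters for 6 of the genes, each 300 bases long with 250 bases before the start and 50 after it. For Hnf4g no promoter was used. The motifs were chosen with earlier results of these data known, and both strands were searched without mismatches. The HNF4 motif CAAAGTNCA is held by 464 of 32851 mouse promoters (1.41%) and the FOXA motif TGTTTAC by 1199 of them (3.65%). Neither motif contains the other.

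Of the 8 promoters 1 held the HNF4 motif and 0 the FOXA motif. The match lay in the Anks4b promoter, on the minus strand, 51 to 59 bases before the start, and is shown on the plus strand, 5′ to 3′, with the matched letters in capitals.
Anks4b promoter, chr7:120173779-120173827: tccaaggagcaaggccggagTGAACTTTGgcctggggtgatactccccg
The 7 other promoters, those of Hnf4a, Adh1, Fam151a, Tmem27 and Anxa10, held neither motif in these 300 bases. A match describes the letters only, and binding was not measured in these libraries.

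The 13 smaller libraries held 26475749 to 36900026 counts, and DMSO replicate 7 held 108865228. Levels are given as CPM, the count per 1000000 counts of the library after correction by trimmed means of M-values (TMM), and 1 count corresponds to 0.00967 to 0.0376 CPM. A few libraries stand apart in their cell type transcripts. DMSO replicate 5 held few insulin and glucagon transcripts, with Ins2 at 2.21 CPM against 2803.5 to 9885.9 CPM in the other DMSO libraries, and Ins1 at 7.26 CPM against 1338.4 to 5854.9 CPM. Adjudin replicate 5 was the lowest Adjudin library for Ins2, at 579.7 CPM, and for the glucagon gene Gcg, at 96.1 CPM. The other Adjudin libraries held 2589.4 to 8235.0 CPM of Ins2 and 205.0 to 2149.2 CPM of Gcg. The delta cell hormone gene Sst stood at 38.5 CPM in Adjudin replicate 5 and 75.8 CPM in DMSO replicate 5. The 3 delta cell markers summed to 76.8 CPM in Adjudin replicate 5 and 117.8 CPM in DMSO replicate 5. Adjudin replicate 3 was the only library with clear liver transcripts: its 8 hepatocyte markers summed to 661.5 CPM, against at most 7.62 CPM in the others. Markers of the islet, insulin and glucagon among them, were present in the remaining libraries, while mesenchymal markers summed to 17272.6 CPM or more in Adjudin and 16985.8 CPM or more in DMSO libraries.

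The 7 genes differed strongly in abundance. Per length (FPKM, CPM divided by the gene length in kilobases), Tmem27 was highest at 46.8 ± 25.1 in Adjudin and 35.3 ± 23.0 in DMSO libraries (SD, n = 7 each). Fam151a followed at 5.88 ± 4.56 FPKM in Adjudin and 3.25 ± 2.41 in DMSO libraries, and Adh1 at 5.40 ± 4.06 FPKM in Adjudin and 2.97 ± 2.13 in DMSO libraries. Hnf4a stood at 3.38 ± 2.07 FPKM in Adjudin and 2.14 ± 1.97 in DMSO libraries. Anxa10 (1.82 ± 0.842 FPKM in Adjudin, 0.565 ± 0.673 in DMSO) and Anks4b (1.28 ± 0.916 in Adjudin, 0.656 ± 0.419 in DMSO) were lower, and Hnf4g was lowest at 0.287 ± 0.147 FPKM in Adjudin and 0.200 ± 0.117 in DMSO libraries. Only Tmem27 was set off from its neighbour in this order, since its mean less 1 SD lay above the mean plus 1 SD of Fam151a in both groups. The other neighbours overlapped within 1 SD.

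**Figure D1:**
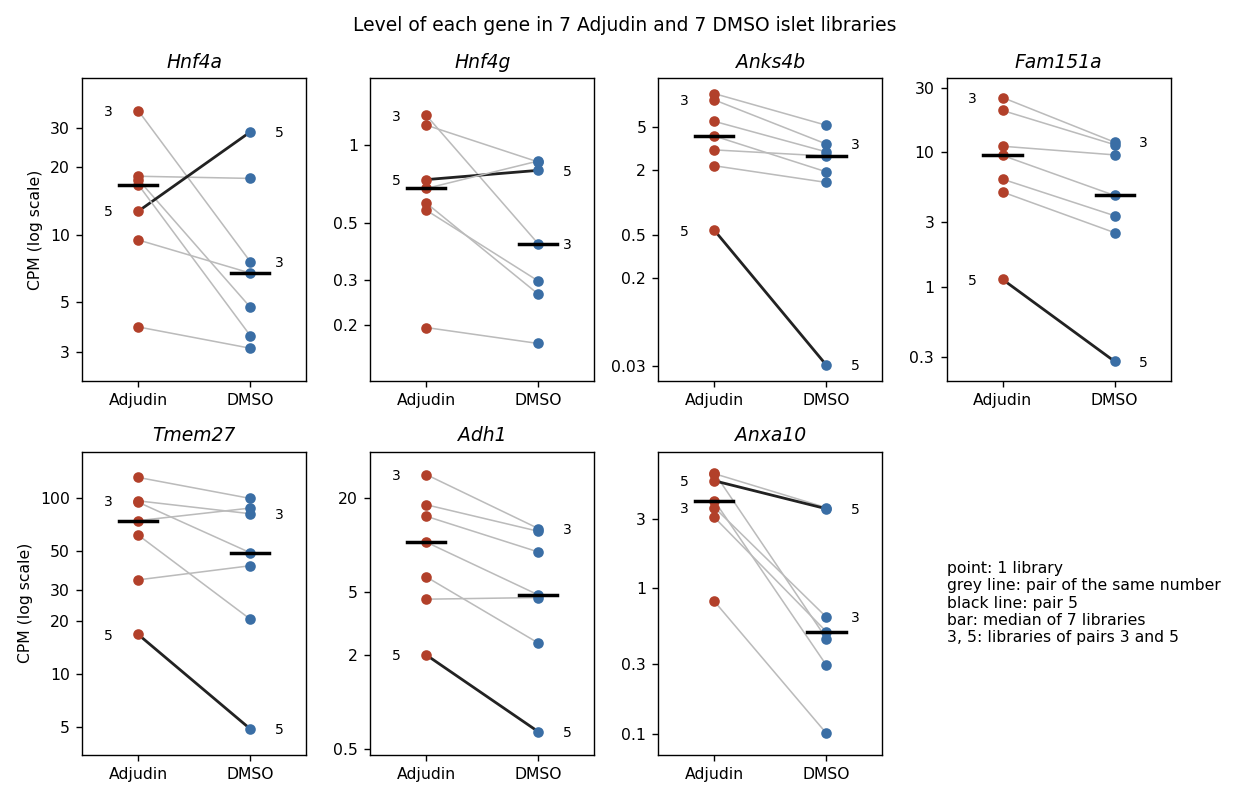
CPM (log axis) of the 7 genes in 7 Adjudin and 7 DMSO libraries, 1 panel per gene, with grey lines joining same-numbered libraries, the line of pair 5 in black and bars at the medians. In the DMSO library of pair 5 Anks4b, Fam151a, Tmem27 and Adh1 are at their lowest (0.0308, 0.277, 4.86 and 0.646 CPM), while Hnf4a is at its DMSO maximum of 28.7 CPM. Anks4b, Fam151a, Tmem27 and Adh1 are also at their Adjudin minimum in the Adjudin library of pair 5 (0.552, 1.13, 16.7 and 1.99 CPM).

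Hnf4a (ENSMUSG00000017950, chr2:163506808-163572910, plus strand) ranged from 3.87 to 35.7 CPM with a median of 16.7 CPM in Adjudin libraries, and from 3.11 to 28.7 CPM with a median of 6.73 CPM in DMSO libraries. Its group means were 16.3 ± 9.98 CPM with Adjudin and 10.3 ± 9.53 CPM with DMSO (SD, n = 7 each). The groups overlapped over nearly their whole range: DMSO replicate 5, at 28.7 CPM, was above 6 of the Adjudin libraries, and Adjudin replicate 6, at 3.87 CPM, was below 5 of the DMSO libraries. The fitted log2 fold change of Adjudin over DMSO was 0.66 ± 0.529 (SE), a fold of 1.58. Within pairs the log2 difference was 2.23 in pair 3, 2.22 in pair 7, 1.88 in pair 4, 0.49 in pair 1, 0.31 in pair 6, 0.03 in pair 2 and -1.17 in pair 5. Hnf4a was thus higher with Adjudin in 6 of 7 pairs, by a wide margin in pairs 3, 4 and 7 only. The fold change was 1.16 on the log2 scale without DMSO replicate 5 and 0.36 without Adjudin replicate 3, the library with liver transcripts, in which Hnf4a was highest. The counts are per gene and do not tell the upstream from the downstream promoter.

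Hnf4g (ENSMUSG00000017688, chr3:3508030-3658052, plus strand), the paralogue best known from gut epithelium, was close to the detection limit. It had 6 to 38 counts in Adjudin libraries and 5 to 90 counts in DMSO libraries. Its level ranged from 0.195 to 1.31 CPM (median 0.680) in Adjudin libraries and from 0.169 to 0.870 CPM (median 0.413) in DMSO libraries, so the groups overlapped. The log2 fold change was 0.49 ± 0.431 (SE), and Hnf4g was higher with Adjudin in 5 of 7 pairs, with within-pair differences between -0.33 in pair 7 and 1.54 in pair 3. Without Adjudin replicate 3 the log2 fold change was 0.32.

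Anks4b (ENSMUSG00000030909, chr7:120173858-120185586, plus strand) encodes an ankyrin repeat scaffold of the brush border that ties microvilli together at their tips, and in mouse beta cells it is known as an HNF4A target. Its lowest, median and highest levels were 0.552, 4.16 and 10.3 CPM in Adjudin libraries, against 0.0308, 2.71 and 5.23 CPM in DMSO libraries. DMSO replicate 5 held 1 count. Fitted over all libraries, the log2 fold change was 0.96 ± 0.645 (SE), a fold of 1.95. Anks4b was higher with Adjudin in 7 of 7 pairs, by 2.81 in pair 5 and by 0.19 to 1.35 on the log2 scale in the other pairs. Without DMSO replicate 5 the log2 fold change was 0.74.

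Fam151a (ENSMUSG00000034871, chr4:106733889-106748292, plus strand) encodes a membrane protein whose function is little known. It stood at 1.13 to 25.6 CPM (median 9.48) in Adjudin libraries and at 0.277 to 11.9 CPM (median 4.77) in DMSO libraries. Adjudin replicates 2 and 3 lay above the whole DMSO range and the other Adjudin libraries within it. The log2 fold change was 0.86 ± 0.665 (SE), a fold of 1.81, and the within-pair differences were the most even of the 7 genes, at 0.85 to 1.10 in pairs 1, 2, 3, 6 and 7, 1.84 in pair 5 and 0.21 in pair 4. The log2 fold change was 0.52 without Adjudin replicate 3 and 0.63 without DMSO replicate 5. Acot11 overlaps Fam151a on the opposite strand over chr4:106744555-106748292 with 9.55 to 13.1 CPM in Adjudin and 9.33 to 13.1 CPM in DMSO libraries, and the strand setting of the counting is not given in the sources used here.

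Tmem27 (collectrin; ENSMUSG00000015401, chrX:164088830-164118860, plus strand) carries amino acid transporters to the surface of kidney cells, and in beta cells it is cleaved by BACE2. Its level ranged from 16.7 to 130 CPM (median 73.9) in Adjudin libraries and from 4.86 to 98.8 CPM (median 48.6) in DMSO libraries. The log2 fold change was 0.40 ± 0.536 (SE), the smallest of the 7 genes, and Tmem27 was higher with Adjudin in 5 of 7 pairs. In pairs 1 and 7 it was lower with Adjudin by differences of -0.26 and -0.24, and in pairs 5 and 6 it was higher by 1.77 and 1.58 on the log2 scale. The log2 fold change of Tmem27 was 0.20 without DMSO replicate 5 and also without Adjudin replicate 2, 0.26 without DMSO replicate 6 and 0.61 without DMSO replicate 2.

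Adh1 (ENSMUSG00000074207, chr3:138260991-138290698, plus strand) encodes the class I alcohol dehydrogenase, which oxidises ethanol and retinol. Its lowest, median and highest levels were 1.99, 10.4 and 28.0 CPM in Adjudin libraries and 0.646, 4.8 and 12.7 CPM in DMSO libraries. Adjudin over DMSO gave a log2 fold change of 0.86 ± 0.603 (SE), a fold of 1.82. Within pairs Adh1 differed by 0.56 to 1.55 on the log2 scale in 6 pairs and by -0.03 in pair 7. Without Adjudin replicate 3, which had the highest level, the log2 fold change was 0.51, and without DMSO replicate 5 it was 0.65. The antisense gene Gm16559 overlaps Adh1 and had 82 counts over all 14 libraries, beside 2499 Adh1 counts with Adjudin and 1839 with DMSO.

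Anxa10 (ENSMUSG00000031635, chr8:62057042-62123150, minus strand) belongs to the annexins, a family of calcium-dependent binders of membrane lipids, and in humans it is best known from stomach epithelium. It differed most of the 7 genes. Adjudin libraries held 6.18, 6.11, 3.58, 3.98, 5.46, 0.812 and 3.06 CPM in replicates 1 to 7, and DMSO libraries 0.451, 3.57, 0.633, 0.296, 3.51, 0.101 and 0.503 CPM. DMSO replicates 2 and 5 lay within the range of the Adjudin libraries and the other 5 DMSO libraries lay below all Adjudin libraries. Its log2 fold change was 1.69 ± 0.666 (SE), a fold of 3.23. Anxa10 was higher with Adjudin in 7 of 7 pairs, by 2.40 to 3.62 on the log2 scale in pairs 1, 3, 4, 6 and 7 and by 0.77 and 0.63 in pairs 2 and 5. The counts behind the lower values were few: 3 counts in DMSO replicate 6 and 9 in DMSO replicate 4. Without DMSO replicate 5 the log2 fold change was 2.17, and without Adjudin replicate 3 it was 1.74.

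Over all genes tested, edgeR's quasi-likelihood test at an adjusted p below 0.05 called 1 of 18732 (0.00534%), and 0 of the 7 genes. At an unadjusted p below 0.05 it called 235 genes higher (1.25%) and 190 lower (1.01%), and 1 of the 7 genes, Anxa10, was higher. With the replicate number as a block, which the shared batch labels allow, 608 genes were higher (3.25%) and 446 lower (2.38%) at an unadjusted p below 0.05, and 4 of the 7 genes were higher, namely Anks4b, Fam151a, Adh1 and Anxa10; 0 passed the adjusted p. DESeq2 with the block called 95 genes higher at an adjusted p below 0.05 (0.507%), with the same 4 of the 7 genes among them. Of all genes 177 were higher in 7 of 7 pairs (0.945%), against 3 of the 7 genes, and 3 genes (0.016%) had every Adjudin library above every DMSO library, against 0 of the 7. Since the rule that chose the genes used this contrast, nothing is read from these counts about the genes.

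The block estimates of the log2 fold change, with SE, were 0.88 ± 0.445 for Hnf4a, 0.54 ± 0.310 for Hnf4g, 1.03 ± 0.285 for Anks4b and 0.95 ± 0.170 for Fam151a. They were 0.61 ± 0.268 for Tmem27, 0.91 ± 0.187 for Adh1 and 2.31 ± 0.438 for Anxa10. The block narrowed the SE most for Fam151a (0.170 with it, 0.665 without) and Adh1 (0.187 with it, 0.603 without) and least for Hnf4a.

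**Figure D2:**
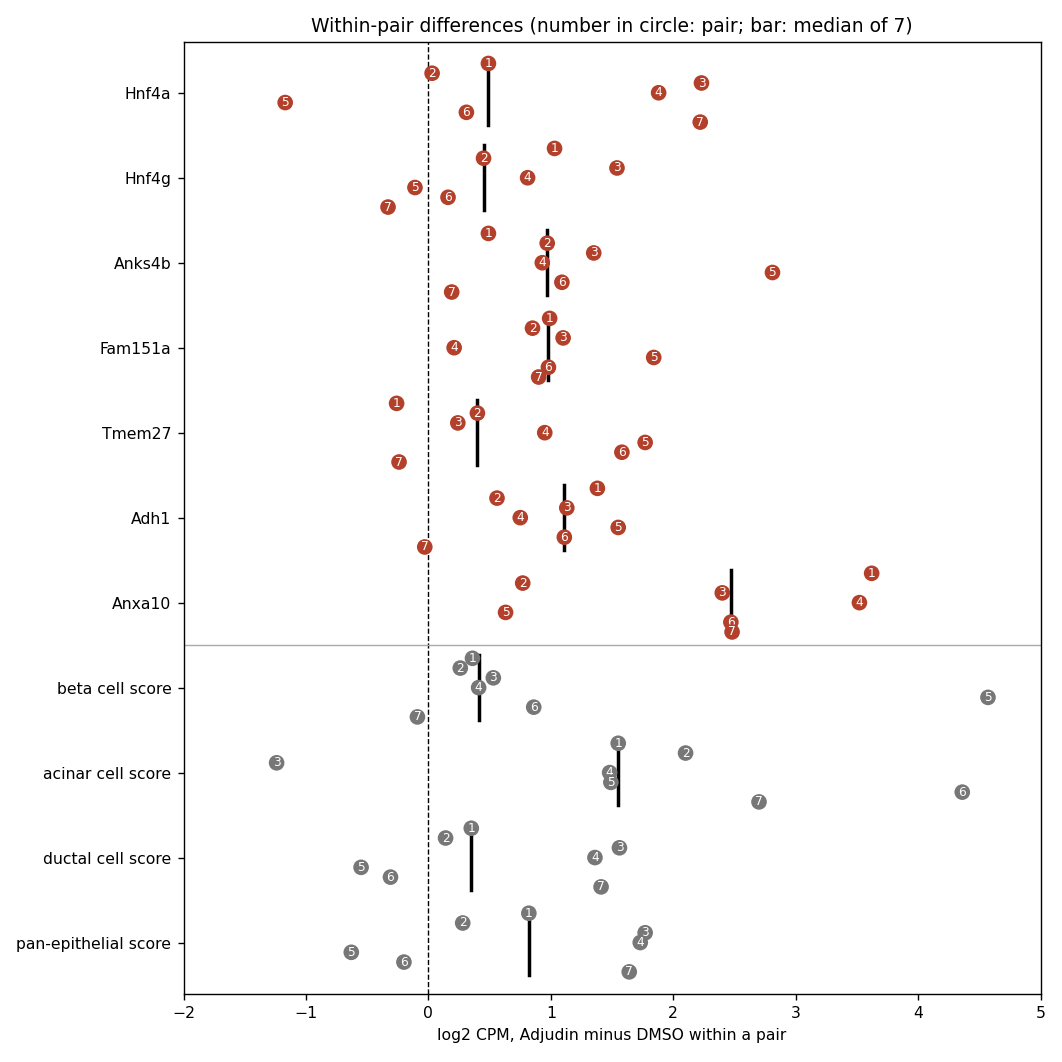
Difference in log2 CPM, Adjudin minus DMSO, within each of 7 pairs, for the 7 genes (red) and for the mean log2 CPM of 4 sets of cell type markers (grey), with the pair number in each circle and a bar at the median. Anxa10, Anks4b and Fam151a are above 0 in 7 of 7 pairs, and Hnf4a and the pan-epithelial score share pairs 3, 4 and 7 at the high end and pair 5 at the low end.

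Among themselves the genes fell into sets of 4 and 3 by how they varied between libraries, as described by Pearson's r of their log2 CPM deviations from the group means over 14 libraries. These libraries share depth and cell makeup among all genes, so r is a description and has no p. Anks4b, Fam151a, Tmem27 and Adh1 moved together, with r between 0.847 and 0.977, and with r of 0.816 to 0.941 to the insulin gene Ins2. Their r to the glucagon gene Gcg was 0.843 to 0.948, for each of the 4 above that to Ins2. With DMSO replicate 5 left out, r was 0.906 to 0.980 to Ins2 and 0.896 to 0.933 to Gcg. Hnf4a, Hnf4g and Anxa10 moved together with r of 0.731 to 0.819, and with the epithelial adhesion gene Epcam at r of 0.926, 0.843 and 0.877 and the duct keratin Krt19 at r of 0.910, 0.830 and 0.902. Across the sets r was near 0 or negative, from -0.315 to 0.145. Without DMSO replicate 5 the r across the sets lay between 0.0923 and 0.523, and the r within them between 0.716 and 0.966.

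**Figure D3:**
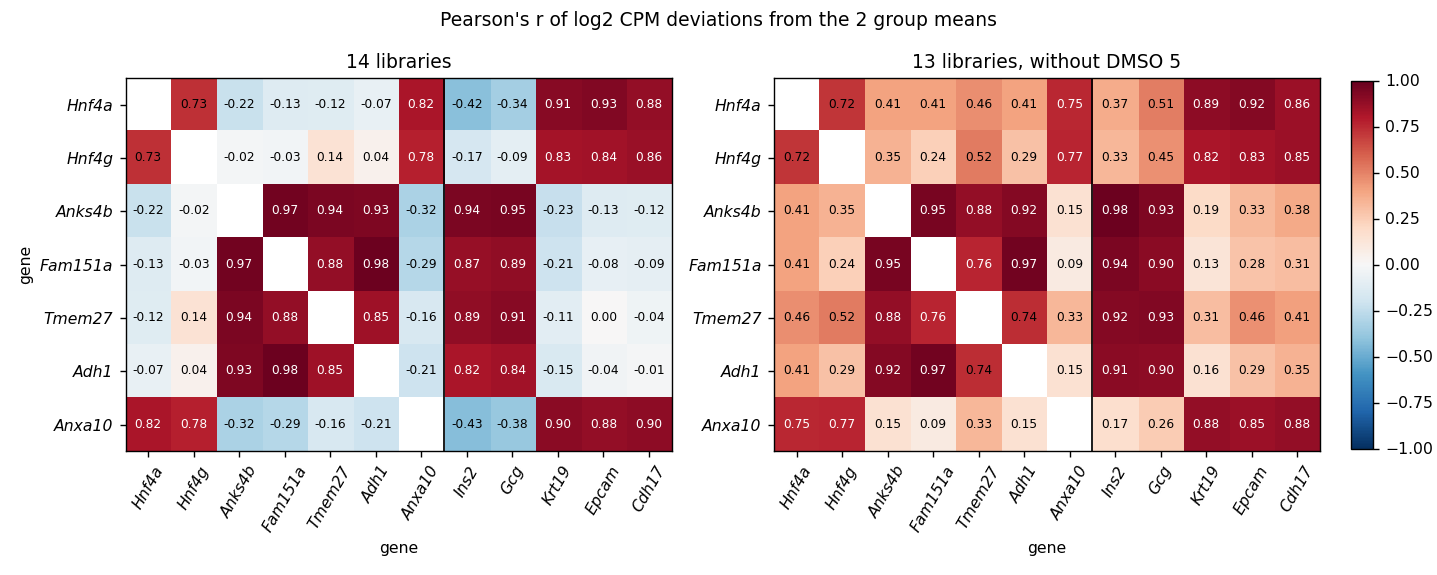
Pearson's r between the deviations of log2 CPM from the Adjudin and DMSO means, for the 7 genes (rows) against each other and against Ins2, Gcg, Krt19, Epcam and Cdh17 (columns), over 14 libraries on the left and 13 without DMSO replicate 5 on the right. In the left panel Anks4b, Fam151a, Tmem27 and Adh1 have r of 0.816 or more with Ins2 and 0.843 or more with Gcg. Hnf4a, Hnf4g and Anxa10 have r of 0.830 or more with Krt19 in that panel.

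The genes most like each member by the same r were taken from the tested genes averaging 0 or more on the log2 CPM scale. Nearest to Hnf4a were Cblc (r = 0.974), Cldn7 (0.973), a claudin of tight junctions, and Tmc4 (0.973). Nearest to Hnf4g were Hspa4l (0.953), Frk (0.933) and the forkhead factor Foxa3 (0.932), and nearest to Anxa10 were Gipc2 (0.937), Acta1 (0.922) and Trim15 (0.917). For Anks4b they were Gjd2 (0.993), which encodes the gap junction protein of beta cells, G6pc2 (0.989), the islet glucose-6-phosphatase, and AC078895.1 (0.983). For Fam151a they were the islet transcription factors Pax6 (0.991) and Nkx2-2 (0.991), then Rspo4 (0.989). Adh1 came closest to Arhgap36 (0.993), Ppp1r1a (0.992) and the glucose transporter gene Slc2a2 (0.989), and Tmem27 to Efcab1 (0.993), Fam183b (0.981) and A530058N18Rik (0.974). Each r is over 14 libraries.

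**Figure D4:**
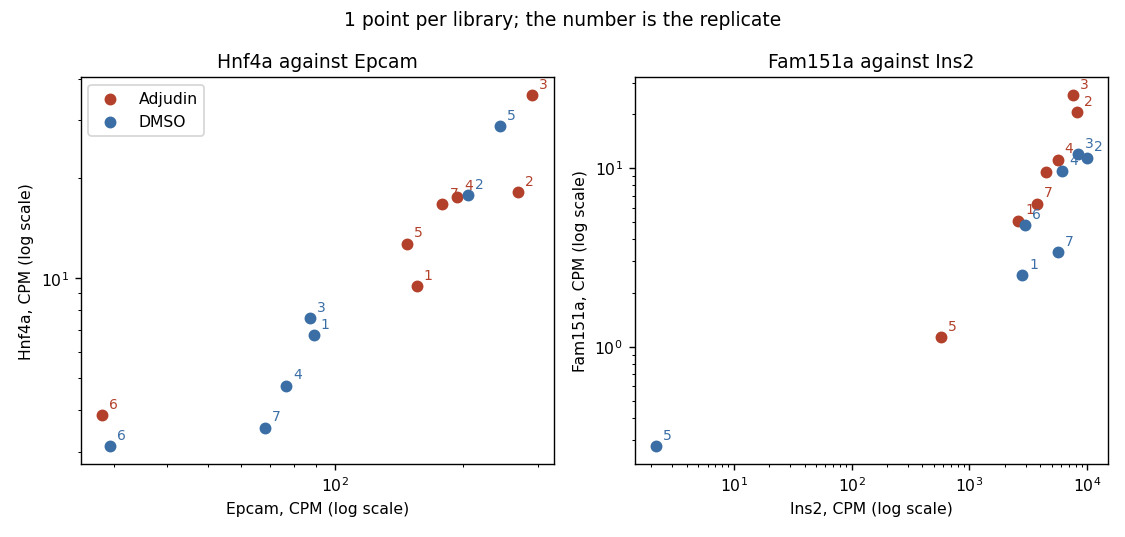
Level of Hnf4a against Epcam (left) and of Fam151a against Ins2 (right), both in CPM on log axes, 1 point per library with its replicate number, Adjudin in red and DMSO in blue. DMSO replicate 5 lies near the top of the left panel (28.7 CPM Hnf4a) and at the bottom left of the right one (0.277 CPM Fam151a, 2.21 CPM Ins2).

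Cell type markers moved with these values. The 5 pan-epithelial markers, all detected, summed to 161.2 to 1965.4 CPM (median 1148.1) in Adjudin libraries and to 198.2 to 1591.3 CPM (median 556.9) in DMSO libraries, and their score was higher with Adjudin in 5 of 7 pairs, with a median difference of 0.82 on the log2 scale. The 7 ductal markers summed to 251.7 to 1343.3 CPM (median 1009) with Adjudin and 234.9 to 1323.2 CPM (median 720.4) with DMSO. Their score was higher with Adjudin in 5 of 7 pairs (median difference 0.35 on the log2 scale). The 9 acinar markers, of which 2 stayed under 1 CPM everywhere, summed to 31.9 to 294.7 CPM (median 96.5) with Adjudin and 11.1 to 282.3 CPM (median 17.3) with DMSO. The acinar score was higher with Adjudin in 6 of 7 pairs, with a median difference of 1.55 on the log2 scale, the largest of the marker scores. The 7 beta cell markers summed to 1293.1 to 16405.5 CPM (median 9530.1) with Adjudin and 19.99 to 17898.9 CPM (median 9735.9) with DMSO. Outside DMSO replicate 5 that sum was mostly Ins1 and Ins2, and Ins2 was higher with Adjudin in 2 of 7 pairs, whereas the beta cell score, in which each marker has equal weight, was higher in 6 of 7 pairs (median difference 0.41 on the log2 scale). Iapp, Mafa, Nkx6-1 and G6pc2 were each higher with Adjudin in 7 of 7 pairs, with median differences of 0.91, 0.69, 0.45 and 0.65. The alpha and delta cell scores were each higher in 6 of 7 pairs, with medians of 0.22 and 0.31. Their part in the differences of the 7 genes was not tested.

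Further values set the 7 genes beside these markers. In a fit with the pan-epithelial score as a covariate, chosen after seeing the data, the log2 fold change was 0.13 for Hnf4a and -0.08 for Hnf4g, and 1.44 for Anxa10. It was 0.73 for Anks4b, 0.60 for Fam151a, 0.23 for Tmem27 and 0.63 for Adh1. Relative to Epcam, again chosen after seeing the data, the within-pair log2 difference of Hnf4a was above 0 in 4 of 7 pairs (median 0.37), that of Hnf4g in 4 of 7 (median 0.06) and that of Anxa10 in 7 of 7 (median 1.36, lowest 0.37). Relative to Ins2, Fam151a, Anks4b and Adh1 were higher with Adjudin in 6 of 6 pairs other than pair 5, with medians of 1.11, 0.92 and 0.85 on the log2 scale, and Tmem27 in 5 of 6 (median 0.53). These counts depended on the beta cell marker taken, and the alternatives were added after seeing the data. Relative to Iapp, Anks4b was higher in 3 of these 6 pairs (median 0.02), Fam151a in 3 (0.20), Adh1 in 2 (-0.22) and Tmem27 in 0 (-0.36). Relative to the beta cell score, Anks4b and Adh1 were higher in 6 of 6 (medians 0.40 and 0.32), Fam151a in 5 (0.58) and Tmem27 in 3 (-0.01). In pair 6 Epcam differed by -0.06, the acinar score by 4.36 and Anxa10 by 2.47 on the log2 scale, with 3 Anxa10 counts in DMSO replicate 6. In pair 5 Epcam differed by -0.73, the acinar score by 1.49 and Anxa10 by 0.63. In the other pairs Epcam and Anxa10 were both higher with Adjudin. The part of cell makeup in these differences was not tested. In pair 5 Ins2 was nearly missing from the DMSO library. There Anks4b, Fam151a, Adh1 and Tmem27 were all lower relative to Ins2, by differences between -6.45 and -5.18. This too depended on the marker. In pair 5 the same 4 genes were all higher relative to Nkx6-1, by 1.1 to 2.37. Relative to the other beta cell markers they were lower, least so relative to Mafa, by differences between -2.07 and -0.81.

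Markers of other organs that express these genes were mostly low. Of 7 gastric markers 4 stayed under 1 CPM everywhere, Gkn2 among them with no count in any library, and the 7 summed to 1.92 to 5.46 CPM with Adjudin and 1.32 to 3.44 CPM with DMSO. Of 5 kidney proximal tubule markers 4 stayed under 1 CPM everywhere, Slc22a6 among them with no count, and the sum, 2.37 to 16.3 CPM with Adjudin and 3.26 to 14.3 CPM with DMSO, was nearly all the endocytic receptor Lrp2. Of 7 intestinal markers 3 stayed under 1 CPM, and the sum rested mainly on the cadherin Cdh17, whose r with Anxa10 was 0.898. That sum was 2.11 to 122.8 CPM (median 42.8) with Adjudin and 3.28 to 92.1 CPM (median 7.37) with DMSO. The intestinal score and Cdh17 were each higher with Adjudin in 5 of 7 pairs, with median log2 differences of 0.68 and 1.5. Muc2 reached 15.7 CPM and Cdx2 5.81 CPM, both in DMSO libraries, but their medians were higher with Adjudin. The median of Muc2 was 4.42 CPM with Adjudin and 0.752 CPM with DMSO, and that of Cdx2 2.47 CPM with Adjudin and 0.774 CPM with DMSO. The part of these organ markers in the level of Anxa10 was not tested.

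The other genes of these pathways were taken from 7 lists of 94 genes, of which 74 were tested. The lists were made with earlier results of these data known. With edgeR 0 of the 74 passed an adjusted p below 0.05, with or without the block, 6 were higher and 0 lower at an unadjusted p below 0.05, and DESeq2 called 0 without the block and 2 with it. The median log2 fold change over the 74 genes was 0.31, with 58 above 0, against -0.01 over all genes tested, of which 45.3% were above 0. With the block 17 of the 74 were higher and 1 lower at an unadjusted p below 0.05, and without the block the count of 6 became 2 without pairs 3 and 5, and 1 with the pan-epithelial score as a covariate.

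**Figure D5:**
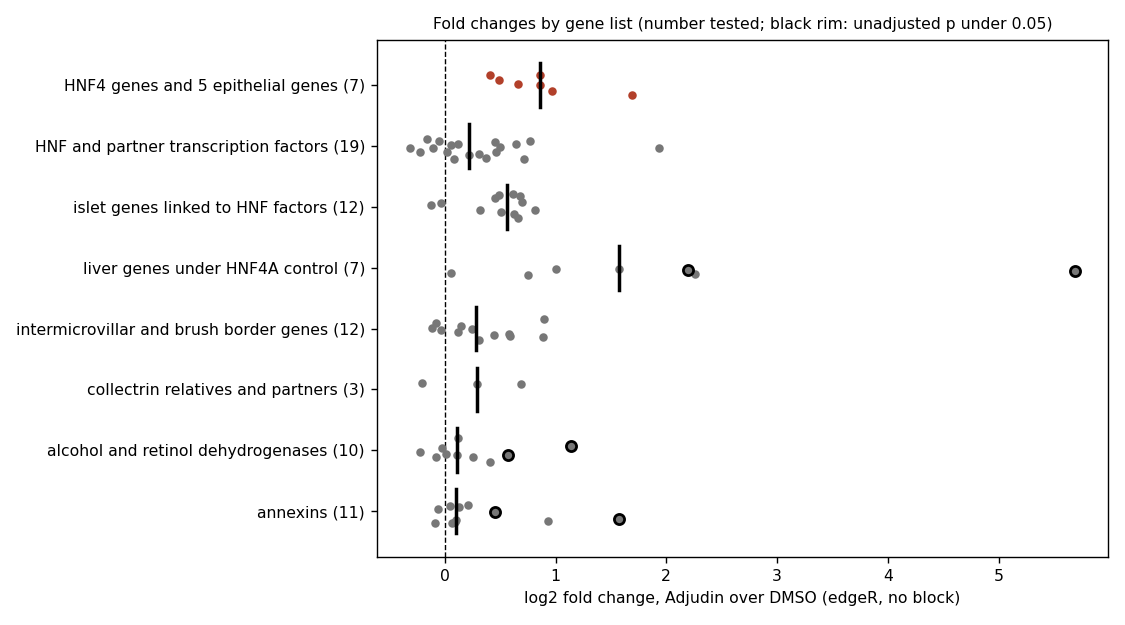
Log2 fold change of Adjudin over DMSO (edgeR without block) for the 7 genes (red, top row) and for the tested genes of 7 related lists (grey), 1 point per gene, with bars at the list medians and a black rim at an unadjusted p below 0.05, which is shown for the listed genes only. The red row was chosen on this contrast; the liver list has the highest median, 1.57 (0.75 with the block), with Afp at 5.69 (1.59 with the block).

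Among HNF and partner transcription factors (19 of 20 tested) 0 genes passed an unadjusted p below 0.05 without the block and 3 were higher with it, and the median log2 fold change was 0.22. The forkhead factors, which open chromatin in endoderm, had log2 fold changes of 1.93 for Foxa1, 0.72 for Foxa2 and 0.50 for Foxa3, with edgeR unadjusted p-values of 0.0566, 0.0729 and 0.221. Foxa1 reached 8.99 CPM in 1 Adjudin library and was at 0 in the lowest library of each group. The ONECUT factors had 0.46 for Onecut1, 0.46 for Onecut2 and 0.76 for Onecut3. Gata6, the most abundant of the list, averaged 121.3 ± 30.2 CPM in Adjudin and 135.8 ± 29.7 CPM in DMSO libraries, and Ppara had the smallest p of those lower, at -0.31 (edgeR unadjusted p = 0.232).

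Of 12 islet genes known to depend on HNF factors 10 had a fold change above 0, with a median of 0.56, and 0 passed an unadjusted p below 0.05 without the block. With the block 6 were higher at that threshold, and DESeq2 with the block called 2 at an adjusted p below 0.05. Pdx1, a beta cell transcription factor, was among them (log2 fold change with the block 0.76 ± 0.128 (SE), DESeq2 adjusted p = 7.52e-05, edgeR adjusted p with the block 0.321), higher with Adjudin in 7 of 7 pairs. Pklr, the liver-type pyruvate kinase, had the smallest p without the block (log2 fold change 0.62 ± 0.364 (SE), edgeR unadjusted p = 0.109). Ins2, the most abundant gene of the list, averaged 4684.9 ± 2699.2 CPM in Adjudin and 5110.7 ± 3428.6 CPM in DMSO libraries, and was higher with Adjudin in 2 of 7 pairs.

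Liver genes under HNF4A control were mostly too low to test: 7 of 21 passed the filter, all 7 with fold changes above 0 without the block (median 1.57, the value of Fabp1), and 2 were higher at an unadjusted p below 0.05. These were Afp, alpha-fetoprotein (log2 fold change 5.69 ± 1.58 (SE), edgeR unadjusted p = 0.00274), and Apoa2 (2.20 ± 0.751, edgeR unadjusted p = 0.0102). Both rested on Adjudin replicate 3, where Afp stood at 135 CPM against at most 0.928 CPM in the other Adjudin libraries, and Apoa2 at 13.2 CPM. With the block the list median was 0.75, Afp had 1.59, Apoa2 0.95 and Fabp1 -0.17, and Fabp1 was higher with Adjudin in 2 of 7 pairs. Ttr, transthyretin, was the most abundant of them and averaged 64.7 ± 53.6 CPM in Adjudin and 38.3 ± 31.5 CPM in DMSO libraries; it is also an islet transcript.

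The intermicrovillar and brush border genes, partners of Anks4b and general microvillus genes together, gave 9 of 12 tested genes above 0 with a median of 0.28. Of these, 0 passed an unadjusted p below 0.05 without the block and 3 were higher with it. Eps8, an actin capping protein, had the smallest p (60.6 ± 11.6 CPM in Adjudin, 48.8 ± 11.0 CPM in DMSO, log2 fold change 0.31 ± 0.160, edgeR unadjusted p = 0.0700) and was higher with Adjudin in 7 of 7 pairs. Ush1c, a binding partner of ANKS4B in human gut cells, had a log2 fold change of 0.58 ± 0.388 and Myo7b, the motor of the complex, 0.44 ± 0.484. Ezr, ezrin, was the most abundant at 167.0 ± 61.8 CPM in Adjudin and 140.7 ± 56.5 CPM in DMSO libraries, and Espn had the smallest p of those lower (-0.12, edgeR unadjusted p = 0.474).

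Of 5 collectrin relatives and transporter partners 3 were tested and 0 passed any threshold. Slc6a19, the amino acid transporter that collectrin carries in kidney, had a log2 fold change of 0.69 ± 0.410 (SE) at 0.613 ± 0.324 CPM in Adjudin and 0.371 ± 0.169 CPM in DMSO libraries (SD, n = 7 each). Of 10 tested alcohol and retinol dehydrogenases 2 were higher at an unadjusted p below 0.05: Rdh10, which makes retinal from retinol (80.0 ± 27.4 CPM in Adjudin, 54.0 ± 7.84 CPM in DMSO, 0.57 ± 0.200, edgeR unadjusted p = 0.0123), and Adh7 (0.865 ± 0.526 CPM in Adjudin, 0.382 ± 0.186 CPM in DMSO, 1.14 ± 0.410, edgeR unadjusted p = 0.0142). Dhrs3, which turns retinal back to retinol, was lower with Adjudin in 7 of 7 pairs (56.8 ± 9.03 CPM in Adjudin, 66.4 ± 9.21 CPM in DMSO, log2 fold change -0.22 ± 0.111, edgeR unadjusted p = 0.0596 without and 0.00161 with the block). Adh5, the most abundant, had a log2 fold change of 0.01 ± 0.144.

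Of the 11 other annexins, all tested, 2 were higher at an unadjusted p below 0.05 and the median was 0.10. Anxa4, an annexin of epithelia, averaged 130.4 ± 38.5 CPM in Adjudin and 95.2 ± 22.6 CPM in DMSO libraries (log2 fold change 0.45 ± 0.189, edgeR unadjusted p = 0.0294), and Anxa8 31.0 ± 19.9 CPM in Adjudin and 10.4 ± 9.62 CPM in DMSO libraries (1.57 ± 0.654, edgeR unadjusted p = 0.0299). Anxa2, the most abundant, had 708.3 ± 127.7 CPM in Adjudin and 650.4 ± 129.0 CPM in DMSO libraries (0.12 ± 0.141), and Anxa6 had the smallest p of those lower (-0.09, edgeR unadjusted p = 0.410).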

How the data were processed

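The authors deposited counts of reads per gene, not normalized, with the length of each gene in bases. Per the submitters' processing notes, reads were aligned with HISAT2 2.0.5 to mm10 and counted with featureCounts 1.5.0-p3; for the annotation release, strand setting and handling of multi-mapped reads nothing is stated. The 7 genes, lists and motifs were chosen with earlier results of these data known.

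Genes were kept by filterByExpr with a minimum count of 10 (18732 of 54532). Counts were scaled by TMM and fitted with edgeR 4.0.16 (robust quasi-likelihood, treatment as the one term, Benjamini-Hochberg over all genes tested) in R 4.3.3, with log2 CPM at a prior count of 2. Alternatives used the replicate block, DESeq2 1.42.0, limma-voom (limma 3.58.1), other scalings and filters, score covariates and left-out libraries. Same-numbered libraries share a batch label, which pairs them; their deviations correlated at -0.135 to 0.451 (mean 0.246), against a mean of -0.041 for other numbers. P-values of the fits without the block rest on the spread between these pooled samples. Those of the fits with the block rest on the spread of the differences within pairs. Beside the 7 genes, the text names of each list the most abundant tested gene, the smallest unadjusted p in each direction, all FOXA and ONECUT genes, the 3 genes most like each member, overlapping genes, and, chosen after values were seen, genes making up counts of a few; some genes of the lists and 1 motif are not reported here. The fits were tested on simulated data first. The simulated libraries were independent, with the same dispersion for all genes and no pair or cell makeup differences. That test therefore does not show how often the fits call genes wrongly in these libraries.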

Additional observations from a re-analysis of the deposited data

Results flagged for a closer look

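Of 51 sets of 7 libraries or 7 pairs (the levels and within-pair differences of the 7 genes and the summed levels of 15 marker lists) 6 held a library far from the others by Dixon's criterion, which chance gives in about 1 set in 20, and none of the 6 was a level or difference of the 7 genes. Hepatocyte markers summed to 661.5 CPM in Adjudin replicate 3, erythroid markers to 260.5 CPM in Adjudin replicate 2 and ductal markers to 251.7 CPM, the lowest of its group, in Adjudin replicate 6. Acinar markers summed to 282.3 CPM in DMSO replicate 3, gamma and epsilon cell markers to 362 CPM in DMSO replicate 2 and macrophage markers to 1241.7 CPM in DMSO replicate 1.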

How the results depend on the processing

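The log2 fold changes of the 7 genes stayed above 0 under all alternatives run except 1: that of Hnf4g was -0.0795 with the pan-epithelial score as a covariate, added after seeing the data. Hnf4g was not tested at a minimum count of 30. Leaving out 1 library or 1 pair gave 0.30 (without pair 3) to 1.22 (without pair 5) for Hnf4a, 0.27 (without pair 3) to 0.71 for Hnf4g, 0.68 to 1.24 for Anks4b, 0.52 to 1.09 for Fam151a, 0.20 to 0.61 for Tmem27, 0.51 to 1.10 for Adh1 and 1.43 to 2.19 for Anxa10. The acinar score as a covariate gave 1.26 for Hnf4a, 0.93 for Hnf4g, 0.14 for Tmem27, 0.56 for Adh1 and 2.84 for Anxa10, and the mesenchymal score gave 0.29 for Hnf4g.

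Counts of called genes moved more, and the cause was not tested. For all genes at an adjusted p below 0.05 (1 in the fit reported) the count was 0 with the replicate block in edgeR, 3 with DESeq2, 105 with DESeq2 and the block, 0 with limma-voom with or without the block, 0 with the acinar or the pan-epithelial score and 0 without pairs 3 and 5. At an unadjusted p below 0.05 (425) it was 1054 with the block in edgeR, 1218 with it in DESeq2, 1123 with it in limma-voom, 2884 with no filter and 222 with the pan-epithelial score. For the listed genes (6) it was 18 with the block in edgeR, 26 with it in DESeq2, 23 with it in limma-voom, 3 with limma-voom without it, 14 with no filter, 3 at a minimum count of 30, 1 with the pan-epithelial score and 2 without pairs 3 and 5. Leaving out 1 library or pair gave 0 to 1, 315 (without pair 3) to 644 (without DMSO replicate 5) and 3 (without Adjudin replicate 3) to 14 (without DMSO replicate 2). Depth limits Hnf4g most, with 5 to 90 counts a library.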
